A study of Mus musculus with 2 samples.

Results

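The PRDM genes described here are Prdm6, the gene deleted in the study, and Prdm1, Prdm2, Prdm4, Prdm10, Prdm15 and Prdm16. They were chosen by name and are 7 of the 18131 genes measured. Transcripts of single cells were counted by 3′ droplet sequencing in the cardiac neural crest region of C57BL/6 mouse embryos at E9.5, a stretch that runs from the otic placode to somite 4. Both genotypes carried Wnt1-Cre2, which drives Cre recombinase in the Wnt1 lineage (the dorsal neural tube and the neural crest cells, or NCCs, that leave it), and the ZsGreen1 reporter of Cre activity. Mutant embryos, Prdm6f/f; Wnt1-Cre2; ZsGreen1, made up the library called KO, and Prdm6+/+; Wnt1-Cre2; ZsGreen1 littermates the library called WT. No sorting step is described, so cells of other lineages, in which Prdm6 stays intact, were captured in both.

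PRDM proteins are transcriptional regulators that join a PR domain, a relative of the SET domain of histone methyltransferases, to an array of zinc fingers that in most members binds DNA. Some members methylate histones themselves, and others act by bringing histone methyltransferases, deacetylases or other cofactors to their target genes. Several are known as regulators of lineage choice: Prdm1 (Blimp-1) in plasma cells and primordial germ cells, Prdm16 in brown fat and in haematopoietic and neural stem cells, and Prdm6 in vascular smooth muscle. The neural crest of this region forms the mesenchyme of the caudal arches, the smooth muscle of the great arteries and the septum of the outflow tract.

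There was 1 library per genotype and no map from cells to embryos, so no difference was tested and no gene is called changed. The unit is the unique molecular identifier (UMI), a count of single transcripts. Levels are UMIs per 1000000 UMIs (CPM) with an exact Poisson interval, and log2 ratios carry an exact conditional interval, both of 95%. These intervals cover counting error only and hold nothing of how embryos or libraries vary. There were 11958 cells with 20781384 UMIs in WT and 9765 with 18936857 in KO, with a median of 1597 and 1703 UMIs per cell, and 26 cell barcodes occurred in both.

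Cell types were set by marker gates. A cell entered a gate when it was high for at least 3 markers of that type and for more of them than of any other type, which placed 35.3% of WT and 30.2% of KO cells. Of 20 gates, 14 held at least 50 cells in each library. The samples are labelled as cardiac neural crest cells, but the 3 gates for NCCs and the dorsal neural tube held 371 WT and 315 KO cells, against 1008 and 661 in the cardiac muscle gate. Among the 10 leading genes of each of these, between 3 and 8 were its own markers, as Tnnt2, Myl7 and Ttn were in the cardiac muscle gate. Some gates were led by genes of other types as well. The migrating NCC gate had Dlx2 and the splanchnic mesoderm gate Barx1 among their 10 leading genes, both markers of the arch mesenchyme list. The smooth muscle gate (55 WT and 52 KO cells) was led by Col1a1, Tagln and Tpm2 and also by Myf5, a skeletal muscle determination gene. The endoderm gate (101 and 79 cells) was led by Foxa1, Ttr, Cldn6 and Afp, and Ttr and Afp are genes of hepatic and visceral endoderm. The sclerotome gate (96 and 58 cells) was led by Tcf15, Uncx and Pax1, and 3 of its 10 leading genes, Myf5, Stra6 and Foxd1, were markers of the dermomyotome or head mesenchyme lists. Gated cells were deeper than the rest, with medians of 1997 against 1402 UMIs in WT and 2366 against 1496 in KO.

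All 7 genes were scarce. A UMI of at least 1 of them was found in 15.7% of WT cells and 17% of KO cells, and no cell held more than 2 UMIs of any single member. Prdm2 and Prdm4 were the most abundant by UMI count, with 499 and 563 UMIs in WT and 511 and 448 in KO. Prdm15 followed with 333 and 284, and Prdm10 with 214 and 195. Prdm1 had 210 and 268, Prdm16 had 140 and 106, and Prdm6 had 104 and 59. Prdm6 and Prdm16 were thus the rarest members in both libraries.

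RefSeq promoter windows (GRCm38.p6, 250 bases before to 50 after the start) were matched for 5 of the 7 genes. CG pairs, the sites of promoter methylation, were counted as one feature that the choice of genes did not use. Prdm4 had the most of the 5, with 32 pairs, and Prdm10 the fewest, with 12. Prdm1 had 20. These 3 windows are printed to show that range, in lower case with CG in capitals. Prdm1 lies at chr10:44458699-44458998, Prdm4 at chr10:85916937-85917236 (both minus strand) and Prdm10 at chr9:31280299-31280598 (plus strand).
Prdm1: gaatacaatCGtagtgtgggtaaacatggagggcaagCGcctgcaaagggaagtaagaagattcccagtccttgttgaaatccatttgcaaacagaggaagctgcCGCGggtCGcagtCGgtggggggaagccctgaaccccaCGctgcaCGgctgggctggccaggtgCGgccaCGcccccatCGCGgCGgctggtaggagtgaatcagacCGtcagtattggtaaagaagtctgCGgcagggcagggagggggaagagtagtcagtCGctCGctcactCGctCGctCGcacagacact
Prdm4: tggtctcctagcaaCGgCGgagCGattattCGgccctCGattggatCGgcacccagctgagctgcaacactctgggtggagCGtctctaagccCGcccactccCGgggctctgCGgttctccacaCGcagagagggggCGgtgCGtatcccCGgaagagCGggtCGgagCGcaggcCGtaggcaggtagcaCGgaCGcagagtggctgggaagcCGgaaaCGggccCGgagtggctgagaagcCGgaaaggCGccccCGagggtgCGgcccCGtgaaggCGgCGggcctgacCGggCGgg
Prdm10: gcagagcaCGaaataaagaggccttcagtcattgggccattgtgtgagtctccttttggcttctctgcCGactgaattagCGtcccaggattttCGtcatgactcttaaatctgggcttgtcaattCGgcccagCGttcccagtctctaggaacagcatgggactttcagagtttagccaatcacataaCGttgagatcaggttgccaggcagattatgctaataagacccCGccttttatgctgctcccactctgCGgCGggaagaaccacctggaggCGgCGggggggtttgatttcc
Prdm15 had 23 CG pairs and Prdm16 had 24. Over all 32841 windows the median was 7 pairs, with quartiles of 3 and 20, and 94.6% held at least 1. The Prdm1 window lies 69753 bases from the upstream end of the gene in GENCODE vM21, at an inner start site, whereas the other 4 lie within 156 bases of theirs.

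**Figure D1:**
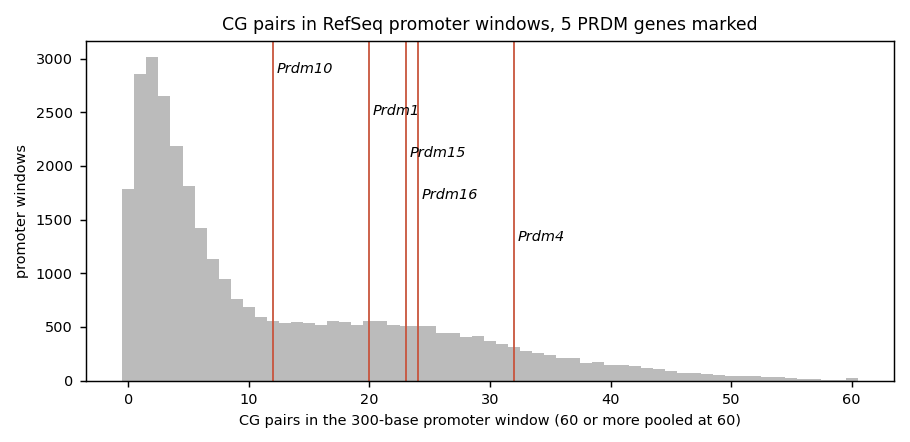
Number of promoter windows (y axis) by CG pairs in the 300-base window (x axis, 60 or more pooled) over 32841 RefSeq windows, with red lines at the 5 PRDM genes. Prdm10 stands at 12 pairs, Prdm1 at 20, Prdm15 at 23, Prdm16 at 24 and Prdm4 at 32, all to the right of the median of 7.

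Prdm6, on chromosome 18 (53463583 to 53575907, plus strand, GRCm38), encodes a PRDM protein linked to methylation of histone H4 lysine 20 and to smooth muscle. Among gated cells its UMIs lay mainly in the heart and the mesoderm beside it, while 50 of 104 WT and 24 of 59 KO UMIs fell outside the gates. The cardiac muscle gate of the WT library held 27 UMIs, or 13.3 CPM (8.79 to 19.4), and that of the KO library 19, or 12.8 CPM (7.72 to 20.04). The splanchnic mesoderm gate, led by Foxf1, Osr1 and Gata5, held 13 (16.0 CPM, 8.50 to 27.3) and 6 (12.1 CPM, 4.46 to 26.4). With UMIs of both libraries summed, splanchnic mesoderm stood first and cardiac muscle second, at 14.5 and 13.1 CPM, and their intervals overlapped.

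Together these 2 gates held 40 of the 54 gated Prdm6 UMIs in WT and 25 of 35 in KO, and gave 32.4% and 27.8% of all UMIs of gated cells. The level there exceeded that of all other gated cells by 2.57 on the log2 scale in WT (1.66 to 3.57) and by 2.70 in KO (1.59 to 3.92). The pair was put together after its values had been seen. For cardiac muscle by itself the excess was 1.73 in WT (0.91 to 2.56) and 2.18 in KO (1.14 to 3.23). For splanchnic mesoderm, the gate with the highest WT level, it was 1.63 (0.60 to 2.56) and 1.47 (−0.09 to 2.76). At least a 2-fold excess in cardiac muscle was shown by 6.57% of 12078 genes in WT and 6.26% of 11687 in KO, and in splanchnic mesoderm by 3.95% and 4.18%. Erythroid cells held 4 Prdm6 UMIs in WT and 0 of 519974 UMIs in KO, which allows up to 5.77 CPM. Floor plate and sclerotome held 0 in both libraries.

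Cells that held a Prdm6 UMI were also described by the marker lists that set the gates. The UMIs and the lists are the same, so this is not independent of the gate result. These cells, 101 in WT and 57 in KO, had a median depth of 2071 and 2555 UMIs, above that of each library. In them the summed cardiac muscle markers stood above those of the other cells by 1.59 on the log2 scale in WT (1.52 to 1.65) and 2.10 in KO (2.03 to 2.17). Splanchnic mesoderm markers stood 1.16 and 1.42 above. Smooth muscle markers stood 1.51 and 1.71 above, although the smooth muscle gate itself held 0 Prdm6 UMIs in WT and 1 in KO. Embryonic heart muscle is known to express several of these markers, among them Tagln and Acta2. The megakaryocyte list stood 5.28 above in WT, from 57 UMIs, and had 0 UMIs in these cells in KO. Whether doublets, droplets that hold more than 1 cell, had been removed before deposit is not stated. UMIs of 1 cell share their source, so these intervals are too narrow for a statement about cells.

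The genes that led these cells in both libraries, on the scale of log2(CPM + 30), were Smpx (1.74 higher in WT and 2.12 in KO), Tnnt2, Ankrd1, Ttn and Popdc2. All 5 are genes of striated or cardiac muscle. Myl9, a myosin light chain of smooth muscle, followed with 1.51 and 1.86, and Ryr2, the calcium release channel of heart muscle, with 1.49 and 2.14. Markers of neurons were lower in the same cells, with log2 ratios of −1.16 in WT and −0.63 in KO, as were those of neural tube progenitors, with −0.43 and −0.90. The genes whose level over the 14 gates in both libraries (28 points) was most like that of Prdm6 were Wnt2 (Pearson r = 0.82), Gucy1a1 (0.77) and Slc16a3 (0.73), the highest of 8270 candidates. Wnt2 is a ligand of the cardiac and foregut mesoderm.

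**Figure D2:**
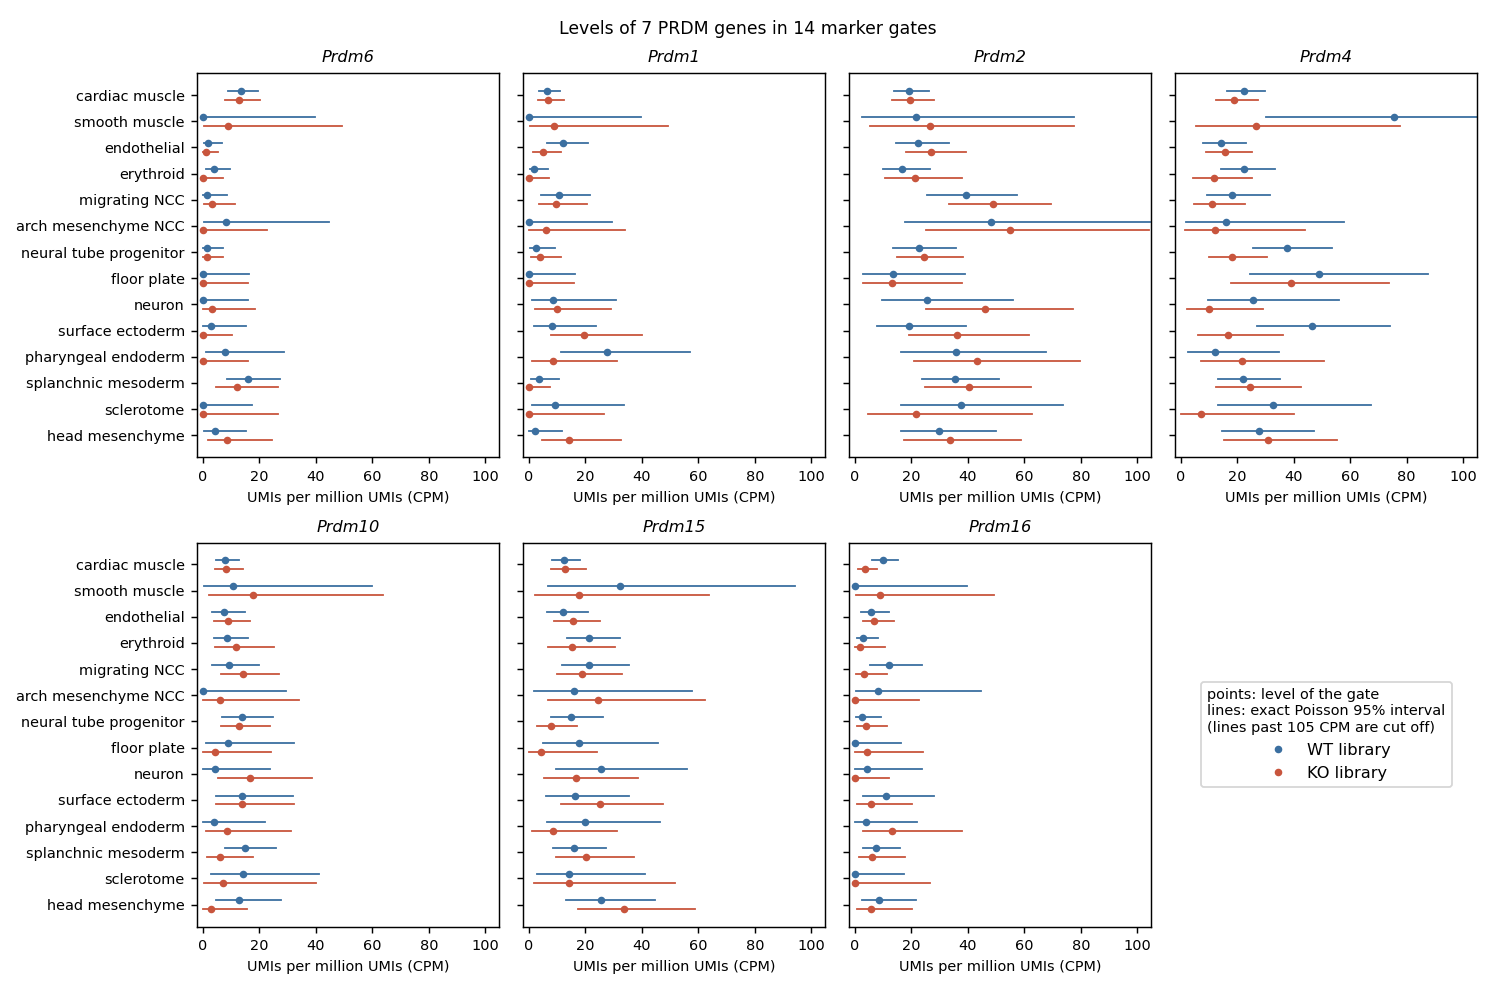
Levels of the 7 genes (x axes, CPM) in 14 marker gates (rows), with WT in blue, KO in red and lines for exact Poisson intervals of 95%. Prdm6 stands highest in cardiac muscle and splanchnic mesoderm, between 12.1 and 16.0 CPM in both libraries, and Prdm2 in the 2 NCC gates, between 39.2 and 54.9 CPM.

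In the gates of the Wnt1 lineage, where Cre acts on the floxed allele, the gene was nearly undetected in either library. The migrating NCC, arch mesenchyme NCC and dorsal neural tube gates as 1 set held 2 Prdm6 UMIs among 892719 in 371 WT cells (2.24 CPM, interval 0.27 to 8.09) and 2 among 881573 in 315 KO cells (2.27 CPM, 0.27 to 8.20). At these counts a loss of the transcript in the lineage was not detectable. Reads from the 3′ end are also blind to which allele a transcript came from, so this comparison checks neither the deletion nor the label of the library. The reporter was not among the genes measured, so membership of the lineage rests on the markers.

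Over all cells Prdm6 was lower in KO. It stood at 5.00 CPM in WT (4.09 to 6.06) and at 3.12 in KO (2.37 to 4.02), a log2 ratio of −0.68 (−1.17 to −0.21). It was the only member past 1.5-fold, and it was past it in the lower direction, as were 5.86% of the 14522 genes with at least 20 UMIs. None was past 1.5-fold higher, against 2.47% of genes, and 8.33% of genes were past it in one direction or the other. Among the 4640 genes with as many UMIs as the members, 4.74% were past 1.5-fold either way. Within cardiac muscle the ratio was −0.06 (−0.98 to 0.84) and within splanchnic mesoderm −0.39 (−2.08 to 1.10). In all gated cells it was −0.33 (−0.98 to 0.31), short of 1.5-fold. Outside all gates, with 50 and 24 UMIs, it was −1.03 (−1.80 to −0.30). The 2 gates with most Prdm6 gave 13.7% of WT UMIs and 10.4% of KO UMIs. Fewer cells of a type and less Prdm6 RNA per cell cannot be told apart in the sum over all cells. Thinning each cell to 1000 UMIs dropped 1361 shallower cells from WT and 125 from KO, and of the others 0.472% of WT and 0.249% of KO cells held a Prdm6 UMI (0.915% and 0.591% of the same cells before thinning). In erythroid cells the thinned share was 0.202% (1 of 495) in WT and 0 of 203 in KO, which allows up to 1.48%.

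**Figure D3:**
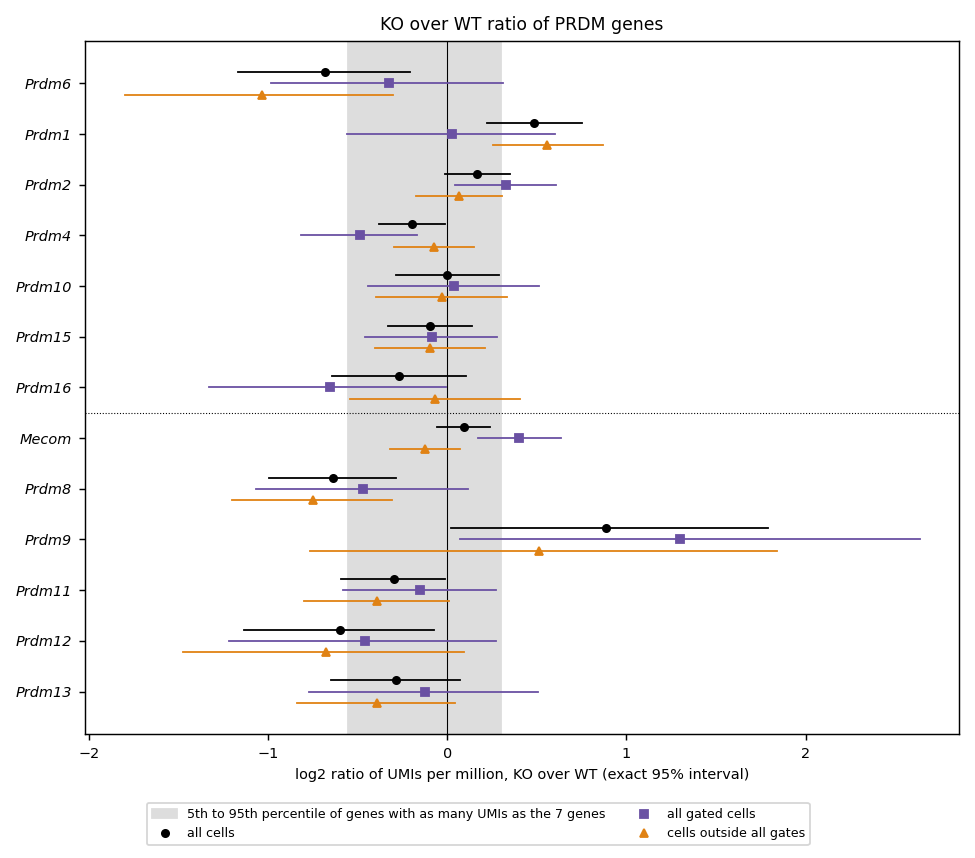
Log2 ratio of CPM, KO over WT (x axis), for the 7 genes and, under the dotted line, 6 other PRDM genes, over all cells (black), gated cells (purple) and cells outside all gates (orange), with exact intervals of 95%. The grey band spans the 5th to 95th percentile of 4640 genes with as many UMIs as the 7 genes (−0.55 to 0.30). Prdm6 lies below it over all cells, at −0.68, and Prdm1 above it, at 0.49.

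Prdm16 is a PRDM protein required for brown fat and linked to noncompaction of the ventricular wall. With both libraries summed it had more UMIs in cardiac muscle than in any other gate, as had every member in this largest gate. The interval of its excess there held 0 in each library. Cardiac muscle held 20 in WT (9.88 CPM, 6.04 to 15.3) and 5 in KO (3.38 CPM, 1.10 to 7.88), and the log2 ratio was −1.55 (−3.32 to −0.09). Of 10214 genes in this gate, 9.23% were at least 1.5-fold lower. Where any UMI made a marker positive for the gates, the ratio was −0.59. The excess of cardiac muscle over other gated cells was 0.73 in WT (−0.12 to 1.54) and −0.45 in KO (−2.19 to 0.95), and with both libraries summed this gate stood 5th of 14. The migrating NCC gate had the highest WT level, with 8 UMIs (12.1 CPM), but only 2 in KO (3.15 CPM). The excess of that gate over other gated cells was 0.91 in WT (−0.38 to 1.99) and −0.51 in KO (−3.62 to 1.48), with 2.92% and 2.51% of genes past 2-fold. Its leading gate was thus not the same in both libraries. The correlation of its levels, as log2(CPM + 10), over the 14 gates between WT and KO was 0.00. For 4640 genes of like counts the median was 0.31, with quartiles of 0.01 and 0.63. Those were computed on levels without the log, so the 2 measures differ and the value of Prdm16 cannot be ranked among them.

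In the 3 Wnt1-lineage gates as a set Prdm16 had 10 UMIs (11.2 CPM) in the WT and 2 (2.27 CPM) in the KO library, and the log2 ratio was −2.30 (−5.53 to −0.07). These gates were joined after their values had been seen. The counts fall short of the 20 UMIs set as the minimum for a ratio within a gate. No share over all genes is given for this set. Over all cells the ratio was −0.27 (−0.65 to 0.11), and outside all gates, with 80 and 75 UMIs, it was −0.07 (−0.54 to 0.41). Thinned to 1000 UMIs, 0.585% of WT and 0.591% of KO cells held a Prdm16 UMI, against 0.202% (1 of 495) and 0 of 203 erythroid cells. The 139 WT and 106 KO cells with a Prdm16 UMI were higher for Smpx (by 1.16 and 0.86 on the scale of log2(CPM + 30)), Myl1 (1.02 and 0.68) and Pln (0.94 and 0.64), which are muscle genes, and also for Ttr (0.74 and 1.63). The cardiac muscle list as a whole stood 0.79 above in WT (0.71 to 0.86) and 0.07 in KO (−0.04 to 0.17). Prdm16 overlaps 2 genes of the opposite strand that were also counted, B230104I21Rik and Gm13134, and whether its UMIs were kept apart from theirs is not stated.

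Prdm1 (chromosome 10, 44437177 to 44528501, minus strand) encodes a repressor that lacks its own methyltransferase activity and recruits cofactors. It is known in the pharyngeal arches and their endoderm. The endoderm gate was highest in WT, with 7 UMIs in 6 cells (27.8 CPM, 11.2 to 57.2), but held 2 in KO (8.66 CPM, 1.05 to 31.3). Its excess over other gated cells was 2.21 in WT (0.82 to 3.36), past 2-fold as for 7.72% of genes (7.26% in KO), and 0.37 in KO (−2.71 to 2.31). Without the 5% deepest cells the WT excess was −0.01, so the WT value in this gate rests on those cells. Endothelium held 13 and 5 UMIs (12.1 and 4.84 CPM) and cardiac muscle 13 and 10 (6.42 and 6.75 CPM). Surface ectoderm held 3 and 7 (8.18 and 19.4 CPM). The otic and epibranchial placode gate, under 50 cells in each library, held 1 and 5. Most Prdm1 UMIs fell outside the gates, 152 of 210 in WT and 220 of 268 in KO.

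The cells that held a Prdm1 UMI, 206 in WT and 258 in KO, were higher for epithelial and pharyngeal lists in both libraries. Otic and epibranchial placode markers stood above those of the other cells by 1.15 in WT (0.85 to 1.44) and by 0.93 in KO (0.65 to 1.199). Pharyngeal endoderm markers stood 0.84 and 0.80 above, and pharyngeal mesoderm markers 0.55 and 0.56. Erythroid markers were lower, with −1.10 in WT and −3.09 in KO, and so were splanchnic mesoderm markers, with −0.72 and −0.84. The leading genes were Gbx2 (1.19 and 1.07 on the scale of log2(CPM + 30)), Spry2 (1.03 and 0.98), Epcam (0.90 and 1.02) and Etv5 (1.17 and 0.81). Epcam marks epithelia, and Spry2 and Etv5 are targets of FGF signalling. Gata3 and Tbx1, transcription factors of the placodes and of the pharyngeal arches, were also among the first 10, with 0.89 and 0.71 for Gata3 and 0.67 and 0.63 for Tbx1. So was Erbb3, a marker of the migrating NCC list, with 1.05 and 0.59. The migrating NCC gate held 7 and 6 Prdm1 UMIs (10.6 and 9.46 CPM). Cells with a Prdm1 UMI had a median depth of 1872.5 and 2087.5 UMIs, above that of each library.

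Over all cells Prdm1 stood at 10.1 CPM in WT (8.78 to 11.6) and 14.2 in KO (12.5 to 16.0), a log2 ratio of 0.49 (0.22 to 0.75). This was the only member whose interval lay above 0, yet it stayed under 1.5-fold. In cells outside the gates the ratio was 0.56 (0.25 to 0.87), and in gated cells it was 0.03 (−0.56 to 0.60). Which cell types made up the cells outside the gates was not tested. After each cell was thinned to 1000 UMIs, 1.17% of WT and 1.48% of KO cells held a Prdm1 UMI. Before thinning it was 1.86% and 2.67% of the same cells. Erythroid cells were taken as a background for this share, though whether their UMIs are free RNA was not tested, and their thinned share was 0.404% (2 of 495) in WT and 0 of 203 in KO, which allows up to 1.48%.

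**Figure D4:**
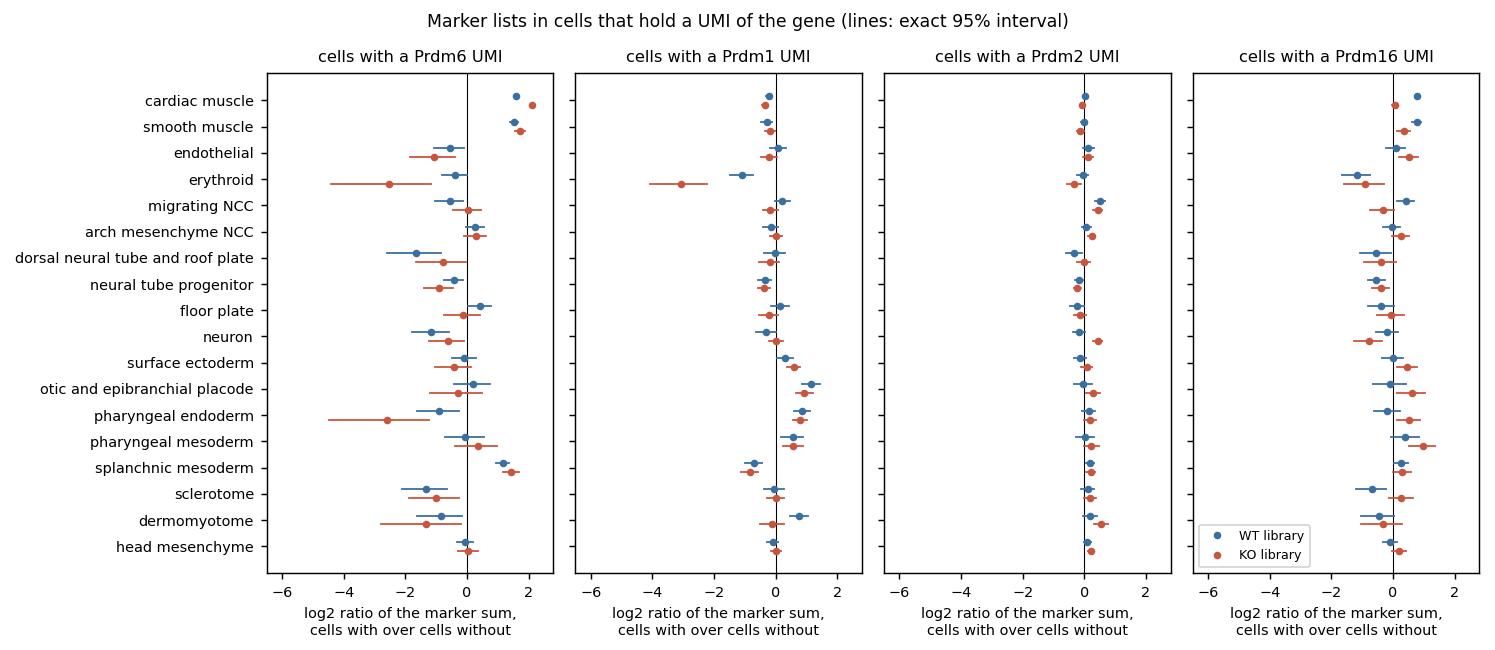
Log2 ratio of summed marker CPM (x axes) between cells with and without a UMI of Prdm6, Prdm1, Prdm2 or Prdm16, for 18 marker lists (rows; the macrophage and megakaryocyte lists, whose gates held at most 2 cells, are left out). WT is in blue, KO in red, and lines are exact intervals of 95%. Cardiac, smooth muscle and splanchnic lists lie right of 0 for Prdm6 in both libraries, by 1.16 to 2.10, and placode and pharyngeal lists for Prdm1, by 0.55 to 1.15.

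Prdm2 (chromosome 4, 143107391 to 143212995, minus strand) encodes RIZ, a histone H3 lysine 9 methyltransferase. It was present in all 14 gates of both libraries and was highest in the neural crest. Arch mesenchyme NCCs, marked by Dlx1, Dlx2 and Hand2, held 6 UMIs in WT (48.0 CPM, 17.6 to 104.6) and 9 in KO (54.9 CPM, 25.1 to 104). Migrating NCCs, marked by Sox10 and Foxd3, held 26 (39.2 CPM, 25.6 to 57.5) and 31 (48.9 CPM, 33.2 to 69.4). These were the first and the second gate in both libraries. The excess of migrating NCCs over other gated cells was 0.78 in WT (0.13 to 1.38) and 0.78 in KO (0.18 to 1.34), under 2-fold. That of arch mesenchyme, the leading WT gate, was 1.01 (−0.45 to 2.16) and 0.89 (−0.26 to 1.84), with 7.63% of genes past 2-fold in WT and 6.37% in KO. Under other gate rules the WT excess was as low as 0.41. The lowest level was in the floor plate, with 3 UMIs in each library (13.4 and 12.97 CPM).

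The 485 WT and 495 KO cells with a Prdm2 UMI were led by Sox10, the defining factor of migrating NCCs, which stood 0.64 and 0.51 higher on the scale of log2(CPM + 30). Tfap2b, another crest transcription factor, followed with 0.53 and 0.41. It was not particular to Prdm2, being also among the 10 leading genes for Prdm15 (0.70 and 0.46) and Prdm10 (0.37 and 0.65). The migrating NCC list as a whole stood 0.51 above in WT (0.36 to 0.65) and 0.44 in KO (0.29 to 0.58). Cells with a Prdm2 UMI had a median depth of 1872 and 2409 UMIs, above that of each library. Those of the migrating NCC gate were deep as well, with medians of 2433 and 2938. How far depth bears on this excess was not tested. Prdm2 was also the member whose levels over the 14 gates were most alike between the libraries, with a correlation of 0.75 over gates that differ in depth. Its closest genes by likeness were Lmo4 (r = 0.75), Eya3 (0.73) and Ube2r2 (0.70).

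In KO against WT, Prdm2 had a log2 ratio of 0.17 (−0.01 to 0.35) over all cells and 0.33 (0.04 to 0.61) over gated cells. It was 0.32 (−0.48 to 1.13) in migrating NCCs and 0.41 (−0.29 to 1.12) over the 3 Wnt1-lineage gates, which held 32 WT and 42 KO UMIs. Thinned to 1000 UMIs, 2.43% of WT and 2.57% of KO cells held a Prdm2 UMI (4.34% and 5.08% of the same cells before). Erythroid cells held one in 2.02% and 2.46%. The share of cells thus differed little from that of erythroid cells, and places for Prdm2 are drawn from the levels alone.

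**Figure D5:**
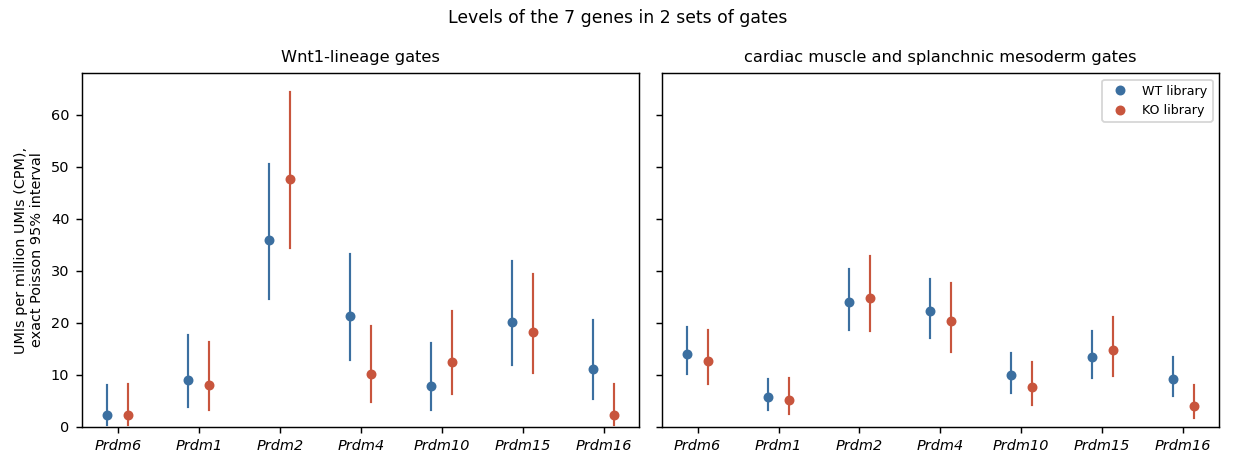
Levels of the 7 genes (y axes, CPM, exact Poisson intervals of 95%) in the 3 Wnt1-lineage gates together (left) and in the cardiac muscle and splanchnic mesoderm gates together (right), WT in blue and KO in red. Prdm6 stands at 2.24 CPM (WT) and 2.27 (KO) on the left and at 14.1 and 12.7 on the right, and Prdm2 at 35.8 and 47.6 on the left and at 24.0 and 24.8 on the right.

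Prdm4, Prdm15 and Prdm10 had UMIs in most gates, though for Prdm15 in WT and for Prdm10 in both libraries the thinned share of cells differed little from that of erythroid cells. Prdm4 (chromosome 10, 85891966 to 85917142, minus strand) encodes a partner of the neurotrophin receptor p75 and of the arginine methyltransferase Prmt5. Its WT levels ran from 11.9 to 75.3 CPM over the 14 gates, with a median of 24.0, and its KO levels from 7.16 to 38.9, with a median of 17.4. The top WT value was that of the small smooth muscle gate, from 7 UMIs, and the same gate held 3 in KO (26.5 CPM). Its excess was 1.62 in WT (0.29 to 2.69) and 0.58 in KO (−1.71 to 2.16), in a gate where 10.7% and 9.91% of genes were past 2-fold. With gates of at least 4 markers the WT excess was 0.32, and where any UMI made a marker positive it was 0.68. Floor plate, the ventral midline of the neural tube, held 11 UMIs (49.0 CPM, 24.4 to 87.6) and 9 (38.9 CPM, 17.8 to 73.9). The excess there was 1.00 (−0.02 to 1.87) and 1.18 (0.02 to 2.16), with 7.77% and 8.66% of genes past 2-fold. Cells with a Prdm4 UMI were also higher for floor plate markers, by 0.30 in WT (0.11 to 0.47) and 0.42 in KO (0.22 to 0.61).

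Over all cells Prdm4 stood at 27.1 (WT) and 23.7 CPM (KO), with a log2 ratio of −0.20 (−0.38 to −0.01). In gated cells the ratio was −0.49 (−0.81 to −0.17) and outside the gates −0.07 (−0.30 to 0.15). Over the 3 Wnt1-lineage gates, with 19 and 9 UMIs, it was −1.06 (−2.39 to 0.15). The thinned share of cells with a Prdm4 UMI was 2.71% in WT and 2.38% in KO, against 1.62% and 1.48% in erythroid cells. Neural tube progenitors held 30 WT and 14 KO UMIs, which gave −1.06 (−2.09 to −0.10), with 9.95% of genes in the gate at least 1.5-fold lower. Surface ectoderm held 17 and 6, a ratio of −1.48 (−3.11 to −0.07), with 11% of genes at least 1.5-fold lower. Cardiac muscle, with 45 and 28, gave −0.23 (−0.97 to 0.48). In all, 28 pairs of a member and a gate reached 20 UMIs, and 3 had an interval that left out 0: these 2 and Prdm16 in cardiac muscle. Of all 86735 pairs of a gene and a gate with at least 20 UMIs, 10.5% had such an interval, and of the 48823 pairs with as few UMIs as those of the members (20 to 73) 5.39% did. No interval was widened for the number of pairs.

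Prdm15 (chromosome 16, 97791467 to 97851850, minus strand) encodes a regulator of Notch and Wnt pathway genes in pluripotent cells. It ran from 12.1 to 32.3 CPM over the WT gates and from 4.32 to 33.6 over the KO gates, and head mesenchyme was among the highest in both, with 12 UMIs each (25.5 and 33.6 CPM). All 6 ratios of KO over WT within gates had intervals that held 0, as did that over all cells, −0.10 (−0.33 to 0.14). Cells with a Prdm15 UMI were higher for Hbb-bh1, an embryonic globin, in both libraries (0.55 and 0.51). The thinned share of cells with a Prdm15 UMI was 1.60% in WT, against 1.62% in erythroid cells, and 1.39% against 0.493% in KO.

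Prdm10 (chromosome 9, 31280538 to 31381723, plus strand) encodes a zinc finger activator. It was the flattest member between the genotypes, at 10.3 CPM in each library, with an interval of the log2 ratio from −0.29 to 0.29. Its thinned share of cells was 0.991% in WT and 1.10% in KO, against 0.808% and 0.985% in erythroid cells. Its gate levels ran from 0 to 14.7 CPM in WT and from 2.803 to 17.7 in KO. The highest WT gate, splanchnic mesoderm (12 UMIs, 14.7 CPM), was not high in KO (3 UMIs, 6.07 CPM), and the correlation between the libraries was 0.01. With the UMIs of both libraries summed, the intervals of every pair of neighbours in the order of gates overlapped, for Prdm10 and for the other 6 members alike.

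Of the 7 members, 4 (Prdm6, Prdm1, Prdm2 and Prdm4) stood at least 2-fold above other gated cells in the gate that was highest in WT among those with at least 5 UMIs of the gene. Since that gate was chosen on the WT values, the count is a description. Of 12699 genes with such a gate, 45.7% stood at least 2-fold above in their own, and of those with as many UMIs as the members 62.4% did. In KO, which was not used for the choice, 1 of the 7, Prdm6, stood 2-fold above in the same gate, against 27.9% of all genes and 35.5% of those of like counts. Under other gate rules, depths and means 2 to 4 members were past 2-fold in WT and 1 to 3 in KO, and Prdm6 was past it in both libraries under each of these 5 settings. The genes most like the remaining members over the gates were Rab40c, 2900026A02Rik and Cnksr2 for Prdm1 (r = 0.63 to 0.65), Lrrn1, Eif3l and Rbbp7 for Prdm4 (0.73 to 0.83), Brms1, Arhgap21 and Dcps for Prdm10 (0.61 to 0.78), Tox4, Clk1 and Robo1 for Prdm15 (0.63 to 0.68), and Swi5, Ubxn8 and Polg for Prdm16 (0.67 to 0.71). Each is the highest of 8270 candidates at low counts. Members were seldom found together: the pair met most often was Prdm2 and Prdm4, in 26 WT and 26 KO cells.

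For comparison, 6 of 7 other PRDM genes were among the genes measured, all but Prdm14. Mecom, Prdm8 and Prdm12 each overlap a gene of the opposite strand that was also counted (Mecomos, A730035I17Rik and Gm13425), with the same limit as for Prdm16. Mecom, a PRDM protein of haematopoietic stem cells and vessels, was highest in endothelium, with 106 UMIs in WT (99.0 CPM, 81.1 to 120) and 126 in KO (122 CPM, 102 to 145), an excess of 1.98 (1.62 to 2.33) and 1.93 (1.59 to 2.26), with 6.97% and 7.04% of genes past 2-fold there. Prdm12, the factor of pain-sensing neurons, was highest in the neuron gate, with 10 WT UMIs (42.7 CPM) and 11 KO UMIs (36.2 CPM), and next in migrating NCCs, with 20 and 11 UMIs. Its excess in neurons was 3.42 (2.24 to 4.47) and 4.04 (2.77 to 5.26), against 8.99% and 7.79% of genes past 2-fold. Cells with a Prdm12 UMI were led by Neurod1, by 2.50 and 3.66 on the scale of log2(CPM + 30), and by Tfap2b and Sox10. Of its gated UMIs, 22 of 44 in WT and 12 of 26 in KO lay in the 3 Wnt1-lineage gates, where Prdm6 had 2 of 54 and 2 of 35. Over all genes these gates held 892719 of 8749089 gated UMIs in WT and 881573 of 7114654 in KO.

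Prdm8 and Prdm13, both neural PRDM genes, had neural tube progenitors as their leading WT gate. For Prdm8 arch mesenchyme NCCs were first in KO (4 UMIs, 24.4 CPM). They were also first with both libraries summed, at 20.8 CPM against 18.4 in neural tube progenitors. For Prdm13 the neuron gate was higher in WT (17.1 CPM), but its 4 UMIs were under the 5 needed to lead. Prdm8 stood 1.95 above other gated cells in neural tube progenitors in WT (1.10 to 2.74) and 1.45 in KO (0.25 to 2.52), and Prdm13 1.09 (−0.13 to 2.15) and 1.74 (0.58 to 2.797). Prdm11 was highest in erythroid cells in WT, with 34 UMIs (31.6 CPM) and 14 in KO (26.9 CPM), an excess of 1.64 (1.01 to 2.23) and 1.38 (0.44 to 2.23), with 4% of genes past 2-fold in each. Prdm9, the recombination factor of meiosis, had 19 and 32 UMIs in all, and the cells that held them were higher for cardiac muscle markers, by 1.63 (1.48 to 1.77) and 1.70 (1.59 to 1.81). Of these 6 genes, 5 stood at least 2-fold above other gated cells in their leading WT gate, and 5 did so in the same gate in KO, against 45.7% and 27.9% of all genes in their own leading gates and 62.4% and 35.5% of those with as many UMIs as the members (163 to 1011), a range that holds Prdm8, Prdm11 and Prdm13 but not Mecom, Prdm12 and Prdm9. In neural tube progenitors 3.06% of genes were past 2-fold in WT and 2.7% in KO.

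Over all cells, 1 of these 6 genes was past 1.5-fold higher in KO and 2 were past it lower, against 2.47% and 5.86% of all genes. Prdm9 had a log2 ratio of 0.89 (0.02 to 1.79), Prdm8 of −0.64 (−0.99 to −0.29) and Prdm12 of −0.60 (−1.13 to −0.07). For Prdm8 the ratio was −0.47 in gated cells (−1.07 to 0.12) and −0.75 outside them (−1.20 to −0.31). For Prdm12 it was −0.46 (−1.22 to 0.27) and −0.68 (−1.47 to 0.09), and for Prdm9 1.298 (0.07 to 2.64) and 0.51 (−0.76 to 1.84). The median ratio was −0.10 over the 7 members, −0.29 over these 6 and −0.06 over all 14522 genes. The cofactors that PRDM proteins are known to use, such as the H3K9 methyltransferases Ehmt1 and Ehmt2, the co-repressors Ctbp1 and Ctbp2, Prmt5 and the H4K20 methyltransferases Kmt5a, Kmt5b and Kmt5c, formed a list of 19, all measured. None was past 1.5-fold in either direction, against 8.33% of all genes and 0.974% of the 5443 genes with as many UMIs as the cofactors (1155 to 16647), with a median of 0.02 and a range from −0.40 (Skil) to 0.27 (Tle4).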

How the data were processed

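The authors dissociated the dissected region, barcoded and pooled samples by MULTI-Seq, sequenced 3′ 10x Genomics libraries and counted UMIs with Cell Ranger 1.3.1. The submitters' processing notes give mm10 and Scanpy, whereas the study describes alignment to human sequence combined with that of ZsGreen1. The gene symbols are those of mouse, no ZsGreen1 column was found, and the annotation release is not given in the sources used here. Cells and genes were filtered, mitochondrial and ribosomal UMIs were removed and DoubletFinder was used against doublets, though whether before deposit is not stated. The deposited values are square roots of counts scaled to a common library size by the authors. No column belonged to other samples (0).

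Squaring a value and dividing by the smallest nonzero square of the cell gave back UMIs, with 100% of values whole within 0.01. Cells under 1000 UMIs (1361 WT, 125 KO) and 26 barcodes found in both libraries were kept, except where cells were thinned to 1000 UMIs.

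A marker counted as positive at or above its 90th percentile over all cells, and a gate needed 3 positive markers and more than any other type. Tied cells (175 WT, 155 KO) stayed outside. Of the gated cells, 1898 and 1394 had exactly 3, and 4 of 173 listed markers were not among the genes. Genes needed 20 UMIs for a share past a fold, a count of 0 was read as 3, and no ratio was given where both counts were 3 or fewer. Intervals are exact (95%) and cover counting error only. Count models were not run, since each genotype had 1 library.

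The members and lists were chosen with earlier results of these data known. The genes named were the 7 members, 7 other PRDM genes, 19 cofactors and, by likeness of log2(CPM + 10) over gates, 3 genes per member among those with at least 500 UMIs that mark no gate. The cells with a member UMI (genes with at least 8 UMIs in each library), the joined gates, the cells outside gates, the CG pairs and the shares of genes past 2-fold in their own leading gate were added after the data were seen. Alternatives were other gates, scalings and depths. Python 3.11.15, NumPy 2.4.6, SciPy 1.17.1 and matplotlib 3.10.9 were used, and recovery and intervals were tested on simulated data.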

Additional observations from a re-analysis of the deposited data

How the results depend on the processing

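With gated cells only, log2 ratios (KO over WT) were 0.025 for Prdm1, −0.49 for Prdm4 and −0.65 for Prdm16, against 0.49, −0.20 and −0.27 over all cells, and that of Prdm6 was −0.33, short of 1.5-fold. Without the 5% deepest cells the WT excess of Prdm1 in the endoderm gate was −0.011 on the log2 scale, against 2.21, and it was 0.94 where a gate needed 2 more markers than any other. In KO the same excess was −0.70 where any UMI made a marker positive, against 0.37. The ratio of Prdm10 in neural tube progenitors was −1.85 with gates of at least 4 markers, against −0.09 (−1.49 to 1.28). With no UMI minimum, 18.2% of genes were past 1.5-fold, against 8.33%. Of the other values recomputed, 46 over all cells, 67 for leading gates and 138 within gates stayed within their counting intervals. Those intervals are wide, and 11 of 68 values for leading gates and 8 of 139 within gates moved by over 1.5 times. Excesses over 2-fold in WT fell below it for Prdm4 in smooth muscle (1.62) with gates of at least 4 markers (0.32) or any UMI for a marker (0.68), and for Prdm2 in arch mesenchyme (1.01) with at least 4 markers (0.60), 2 more markers than any other (0.41), any UMI (0.60) or the mean over cells (0.79). The KO excess of Prdm4 rose from 0.58 to 1.89 with 2 more markers than any other. With any UMI, the ratio of Prdm16 in cardiac muscle was −0.59, against −1.55, and the KO excess of Prdm6 in splanchnic mesoderm 2.11, against 1.47. Scaling by the median of ratios moved ratios by up to 0.08, the trimmed mean by 0.06 and the mean over cells of normalised UMIs by up to 0.14 over all cells. For 3 values too few UMIs were left: Prdm1 in endoderm (KO) and Prdm2 in surface ectoderm with at least 4 markers, and Prdm16 in migrating NCCs (KO) with any UMI. No paired analysis was possible because each genotype had 1 library, and none could be left out. The low counts limit every value within a gate.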

Other observations

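The cells with a Prdm9 UMI, 19 in WT and 32 in KO, were led by Tnnt2 (1.78 and 1.77 higher on the scale of log2(CPM + 30)), Myh7 (1.92 and 1.75) and Myl7 (1.61 and 1.71), genes of heart muscle. Their median depth was 1972 and 2648 UMIs. The cardiac muscle and splanchnic mesoderm gates held 4 of the 9 gated Prdm9 UMIs in WT and 6 of 18 in KO, against 32.4% and 27.8% of all gated UMIs. The excess there was 0.74 (−1.60 to 2.95) and 0.38 (−1.32 to 1.91). Splanchnic mesoderm held 0 in both libraries, and for cardiac muscle by itself it was 1.41 (−0.92 to 3.63) and 0.93 (−0.77 to 2.45). Each interval held 0, so at these counts no excess was shown by the gates.

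The cells with a Prdm11 UMI were led by the globin genes Hba-a2 (1.67 and 1.64) and Hba-a1 (1.75 and 1.60). Those with a Prdm8 UMI were led by Olig2, a factor of motor neuron progenitors (0.98 and 0.83). Those with a Mecom UMI were led by Cdh5, the cadherin of endothelial junctions (1.23 and 1.27), Eng (1.06 and 1.14) and Cd34 (1.06 and 1.01).

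Pairs of members with Prdm6 were found in at most 5 cells of a library: Prdm4 was met with Prdm6 in 5 WT and 2 KO cells, and Prdm15 in 2 WT and 4 KO cells.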
